A study of Danio rerio with 3 samples.

Results

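The expression state of untreated zebrafish (Danio rerio) scales was described from the single control array of a series of 3 arrays. A member is a gene with at least 1 probe set (a group of short probes for the same transcript) that the platform annotation pairs with exactly 1 gene symbol; control probe sets were left out, and where a gene had several, the one with the strongest control signal stands for it. This gave 8793 genes, from 10795 of the 15617 probe sets. The control scales stayed 6 h in L-15 medium at 15 °C. The other arrays hold scales kept in the same way with 1 nM of benzo[c]phenanthrene (BcP) or with 1 nM of 3-hydroxybenzo[c]phenanthrene (3-OHBcP), and they serve below for a second reading of the order of genes and for no treatment comparison. Strain, age and sex of the fish, the number of scales or fish behind the control RNA, and any solvent in the control medium are unknown from the sources used here. All 3 groups were cultured before RNA was taken, so the values describe cultured scales and not scales freshly removed from the skin.

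A scale is a thin mineralized plate of the dermis that lies under the epidermis. Osteoblasts on its surface lay down collagen and mineral, and osteoclasts dissolve them with acid and proteases. A removed scale carries epidermis with it, and can carry pigment cells, leukocytes, vessels and nerve endings. Each value below is the authors' deposited log2 signal of a probe set, so a step of 1 is a doubling of signal. There was 1 array for control scales, so no value has a replicate error, no test was made, and the number of arrays limits the precision. Signal depends on the binding strength of a gene's probes as well as on its RNA, and it is not scaled per transcript length; the order of genes given here is therefore an order of signals and not of transcript numbers. In a tissue of several cell types, few cells of a type and little RNA per cell cannot be told apart.

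The labelled tissue was checked against markers of bone-forming and bone-resorbing cells. The gene for the hypertrophic and dermal bone collagen X chain, col10a1b, read 12.48 and stood at rank 130 of 8793. The collagen I gene col1a1a, the main structural chain of bone, read 12.11 (rank 155). The gene of the bone-degrading protease cathepsin K, ctsk, read 10.15 (rank 514). The acid phosphatase gene acp5a, a classical osteoclast marker, read 7.13 (rank 2857). All 4 markers lay above the background bound defined next, as did 72.5% of all genes. The matrix genes stood near the top of the array. The acp5a signal was above the median gene, at a level that a few genes of tissues a scale does not hold also reached (up to 7.96).

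Signals of the 8793 genes ran from 2.09 to 14.09, with a median of 5.98 and quartiles at 4.36 and 7.65. A level near background was set from 155 genes of tissues that a scale does not hold, namely photoreceptor and lens, liver, pancreas and gut, germ cell and brain patterning genes. Their median was 3.99, and their 75th percentile, 4.52, was taken as the background bound, so 39 of them lie above it by construction. Of all genes, 6379 (72.5%) were above the bound and 2414 were at or under it. Each count of list genes above the bound given below is to be read beside this 72.5%. The bound is not a sharp border, since 1366 genes lay within 0.5 of it. Genes at or under the bound had a median of 3.60 and together gave 0.997% of the summed linear signal. The 100 highest genes gave 30.3% of that sum, the 879 genes of the top 10% gave 73.5%, and 246 genes were enough for 50% of it.

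**Figure D1:**
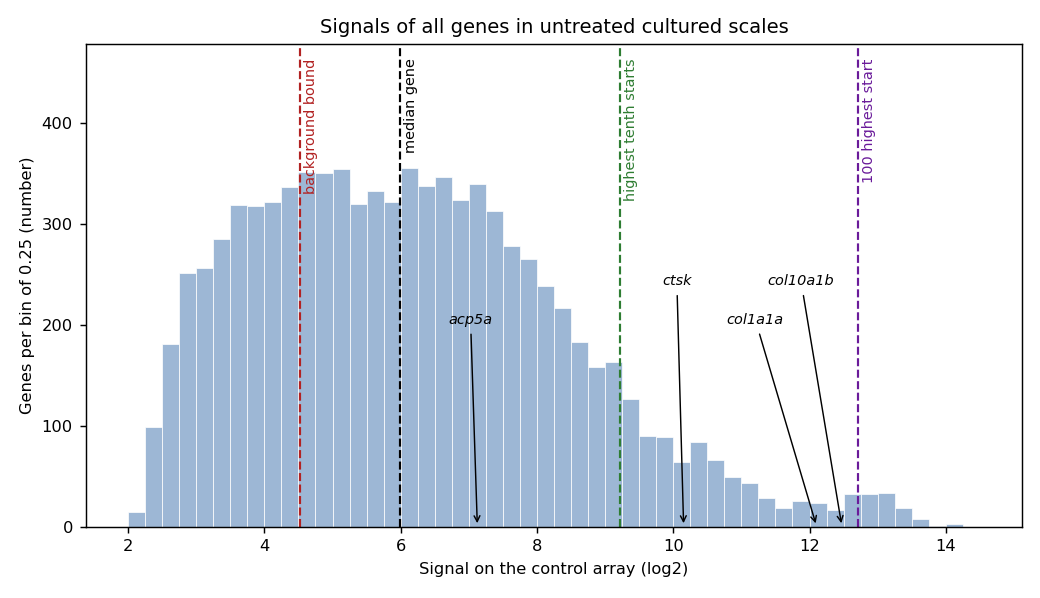
Number of genes (vertical axis, bins of 0.25) by log2 signal on the control array (horizontal axis), with dashed lines at the background bound, the median gene, the start of the top 10% and the start of the 100 highest genes. The matrix genes col10a1b (12.48) and col1a1a (12.11) stand far to the right, ctsk (10.15) is inside the top 10%, and acp5a (7.13) lies between the median and the top 10%.

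Genes of protein synthesis filled most of the top of the array. Of the 100 highest genes, which are 1.14% of all, 60 encode cytosolic ribosomal proteins, 6 belong to the translation factor list and 4 to the keratins. All 74 ribosomal protein genes were above the bound and 73 were in the top 10% of all genes, which by definition holds 10% of them. Their median was 12.99. The small subunit gene rps2 was the highest of them at 13.72, followed by the stalk protein gene rplp0 at 13.50 and the large subunit gene rpl30 at 13.44. The lowest were the paralogue genes rpl7l1 (9.77) and rps27l (9.18). All other members lay above both of these.

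Translation factors were spread more widely, with 63 of 66 above the bound, 27 in the top 10% and a median of 8.74. The elongation factor gene eef1a1l1, whose protein delivers aminoacyl-tRNA, read 13.44. The nascent chain binding gene naca read 12.95, and the elongation factor 1 gamma gene eef1g read 12.85. At the other end of the same family, eef1a1b read 2.51 and the cap-binding paralogue gene eif4e1b read 3.69. The elongation factor 1A family thus held both a gene among the 30 highest and a gene near background.

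Among the rest of the 30 highest genes, skin and general cell genes alternate with genes that have only clone-based names. The highest signal, 14.09, belonged to si:dkey-238c7.12, and si:dkey-7c18.24 followed at 14.02. Neither the files nor the annotation give these genes a function. The mitochondrially encoded cytochrome oxidase gene COX1 was next at 14.01, and its 3 probe sets read 14.01, 13.53 and 13.02. The ictacalcin gene icn, an S100 calcium-binding protein gene, read 13.83. The thymosin gene tmsb1, whose family binds actin monomers, read 13.73. The lipocalin-type prostaglandin D2 synthase genes ptgdsb.2 and ptgdsb.1 read 13.63 and 13.36. The ubiquitin gene ubb read 13.54 and the ferritin heavy chain gene fth1a 13.37. The cyclophilin A gene ppiaa read 13.51 on one probe set and 7.38 on the other, so its place depends on which is read. The last of the 100 highest genes read 12.71 and the next one below read 12.70, so the border of this group is not a step in the data.

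Epidermal genes were led by the keratins. Of 15 keratin genes, which encode the intermediate filaments of epithelia, 14 were above the bound and 10 in the top 10%, with a median of 10.92 against 5.98 for all genes. The keratin genes krt97 and krt91 read 13.62 and 13.49. Below them came krt4 (12.83), krt5 (12.82), krt8 (12.29) and krt18a.1 (11.40). The lowest were krt1-19e at 4.67, close to the bound, and krt95 at 3.14. Keratins therefore covered nearly the whole range of the array.

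Cell junction genes showed the same spread at high level, with 40 of 45 above the bound, 24 in the top 10% and a median of 9.30. The epithelial adhesion gene epcam read 12.97 on one probe set and 4.57 on the other, so its place depends on which is read. The desmosomal plaque gene pkp3a read 12.50. The desmosome-associated gene perp read 12.44 and 7.07 on its probe sets. The claudin genes cldng (12.12), cldni (12.09) and cldnb (12.04) encode tight junction proteins that seal the paracellular space. The lowest claudins were cldn5a (2.87), known from vessel walls, and cldn34a (2.65).

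Among annexin and S100 genes, which encode calcium-dependent membrane-binding and calcium-sensing proteins, 20 of 24 were above the bound and 14 in the top 10%. The annexin gene anxa1a read 13.55. The second ictacalcin gene icn2 read 13.50 and 11.85 on its probe sets, and s100a10b, whose protein pairs with annexin 2, read 12.66. The genes s100a1 (2.90) and s100b (2.84) were near background. In the list of epidermal regulators and secretory cells, 12 of 19 genes were above the bound (63.2%, next to 72.5% of all genes). The retinol carrier gene rbp4 read 13, the apolipoprotein E gene apoeb read 12.36, and lye, an epidermal Ly6-family gene, read 11.85. The epithelial transcription factor gene elf3 read 10.55, and agr2, a disulfide isomerase gene of mucus-secreting cells, read 10.42. Of the sodium pump subunit genes in the list, atp1b1a read 10.35 and 9.63 on its probe sets, and atp1a1a.5 read 2.46.

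Bone and scale matrix was represented by 8 collagen genes, all above the bound and 4 of them in the top 10%, with a median of 10.04. The collagen genes fell into a high and a lower set. The high set was col10a1b (12.48), the collagen I alpha 2 gene col1a2 (12.12), col1a1a (12.11) and the second collagen X gene col10a1a (11.78). The second probe sets of col1a2 and col1a1a read 11.40 and 11.24, and both col1a1a probe sets are marked as possibly matching further transcripts. The lower set held the collagen V gene col5a2a at 8.30, the collagen VI gene col6a3 at 8.28, the collagen XII gene col12a1b at 7.84 and the collagen XI gene col11a1a at 6.77. These minor collagens associate with or regulate the width of the main fibrils. The other probe set of col5a2a read 3.60, under the bound.

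Other bone matrix and mineral genes were more uneven, with 7 of 11 above the bound (63.6%, next to 72.5% of all genes) and 1 in the top 10%. Only 11 of the 30 names written for this list had a probe set of 1 symbol. The enamelin gene enam (12.12), chosen after its value was seen, is in no list and is given under other observations. The collagen-binding matrix gene sparc, osteonectin, read 11.17. The pyrophosphate-generating enzyme gene enpp1, an inhibitor of mineral growth, read 8.49. The fibril-binding proteoglycan gene dcn read 8.21, and the phosphorylated matrix protein gene spp1 (osteopontin) read 8.06. The phosphate-regulating peptidase gene phex read 7.29, 4.95, 4.92 and 4.34 on its 4 probe sets. The pyrophosphate transport gene ankha read 6.59, and its paralogue ankhb 3.91. The alkaline phosphatase gene alpl, which frees phosphate for mineral, read 5.62, below the median of all genes. The actinotrichia genes and2 (3.52) and and1 (3.40), known from fin folds, and the biglycan gene bgnb (3.02) were near background.

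Genes that fold, modify and crosslink collagen were all above the bound, 15 of 15, but at middle signals, with a median of 6.90 and 1 gene in the top 10%. The cyclophilin B gene ppib, part of the prolyl 3-hydroxylation complex, read 10.13. Its partner crtap read 8.34. The secretory pathway transcription factor gene creb3l2 read 8.69, and the COPII coat gene sec23a, needed to export collagen from the endoplasmic reticulum, read 7.97. The lysyl oxidase genes loxl2b and loxa, which form crosslinks, read 7.86 and 7.74. The lysyl hydroxylase genes plod1a and plod3 read 6.90 and 6.27, and the procollagen C-proteinase enhancer genes pcolcea and pcolce2b read 6.88 and 5.73. The immunophilin genes fkbp9 and fkbp10b read 7.49 and 5.73. The collagen chaperone gene serpinh1b read 5.77, and the prolyl 4-hydroxylase genes p4ha2 and p4ha1b read 5.61 and 5.12.

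Regulators of osteoblasts were lower still, with 24 of 28 above the bound (85.7%, next to 72.5% of all genes). Their median was 5.55, under the median of 5.98 for all genes. With the bound at the 90th percentile of the off-tissue genes, the share was 67.9%, next to 62.7% of all genes. The highest were the stress-response transcription factor genes atf4b (10.88) and atf4a (10.87), which act in osteoblasts and in most other cells. The osteoblast cadherin gene cdh11 read 7.56 and 6.28 on its probe sets. The gene sox9b, a factor of cartilage and other skeletal progenitors, read 7.41 and 4.82, the latter close to the bound. The master factor genes were modest, with runx2a at 7.33 and 5.71 on its probe sets. The genes runx2b at 4.93 and sp7, osterix, at 4.78 lay close to the bound of 4.52. The 7.33 probe set of runx2a shares its design number with a col1a1a probe set, and whether it measures runx2a was not tested. Among homeobox genes, dlx3b read 7.20, dlx5a 7.05, msx2b 7.01, msx3 5.54, dlx4b 5.54 and msx2a 5.50, while dlx6a (4.50), msx1a (4.15) and msx1b (4.03) were under the bound. Of the bone morphogenetic protein ligand genes, bmp2b read 7.13 and bmp2a 6.08, while bmp4 at 4.80 was close to the bound. Of their receptor genes, bmpr1aa read 7.0, 5.45 and 4.93 on its probe sets and bmpr1ab read 6.56. The signal transducer gene smad5 read 7.12 and 3.54 on its probe sets, while smad1 read 4.68. The hedgehog ligand gene shha, known from scale epidermis, read 5.41. The remaining members were twist1a (5.55), twist3 (5.13), the runx cofactor gene cbfb (4.6) and sox9a (4.07).

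Osteoclast genes of matrix and acid secretion were above the bound in 12 of 13 cases, with a median of 7.51 and 2 genes in the top 10%. After ctsk (10.15) came the gelatinase gene mmp9 at 9.84, which leukocytes and wound epidermis also express. The membrane-type matrix metalloproteinase genes mmp14a and mmp14b read 8.74 and 7.59, and the collagenase gene mmp13a read 7.51. Acid secretion by osteoclasts needs a chloride exchanger, a proton pump and carbonic anhydrase. The exchanger gene clcn7 read 7.88 and its partner ostm1 read 6.37. The osteoclast pump subunit gene tcirg1b read 7.29, and the carbonic anhydrase gene ca2 read 7.78 and 5.26 on its probe sets. The vesicle sorting gene snx10a read 6.74, the anion exchanger gene slc4a2a 5.44, and the blood-type carbonic anhydrase gene cahz 3.89.

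Receptors and regulators of osteoclasts were weakly represented, since only 7 of the 23 listed names had a probe set of 1 symbol. The receptor gene csf1ra, which osteoclast precursors, macrophages and xanthophores use, read 4.47, just under the bound. The gene of a ligand for it, csf1b, read 7.34. The myeloid factor gene spi1b read 6.83 and 5.45 on its probe sets, and the kinase gene src, needed for the ruffled border, read 5.32. The AP-1 gene fosab, required for osteoclasts in mice but induced in most cells, read 12.41. The factor genes mitfb and mitfa read 4.37 and 3.54. Genes for RANK, its ligand and its decoy (tnfrsf11a, tnfsf11 and tnfrsf11b) were not analysed here.

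**Figure D2:**
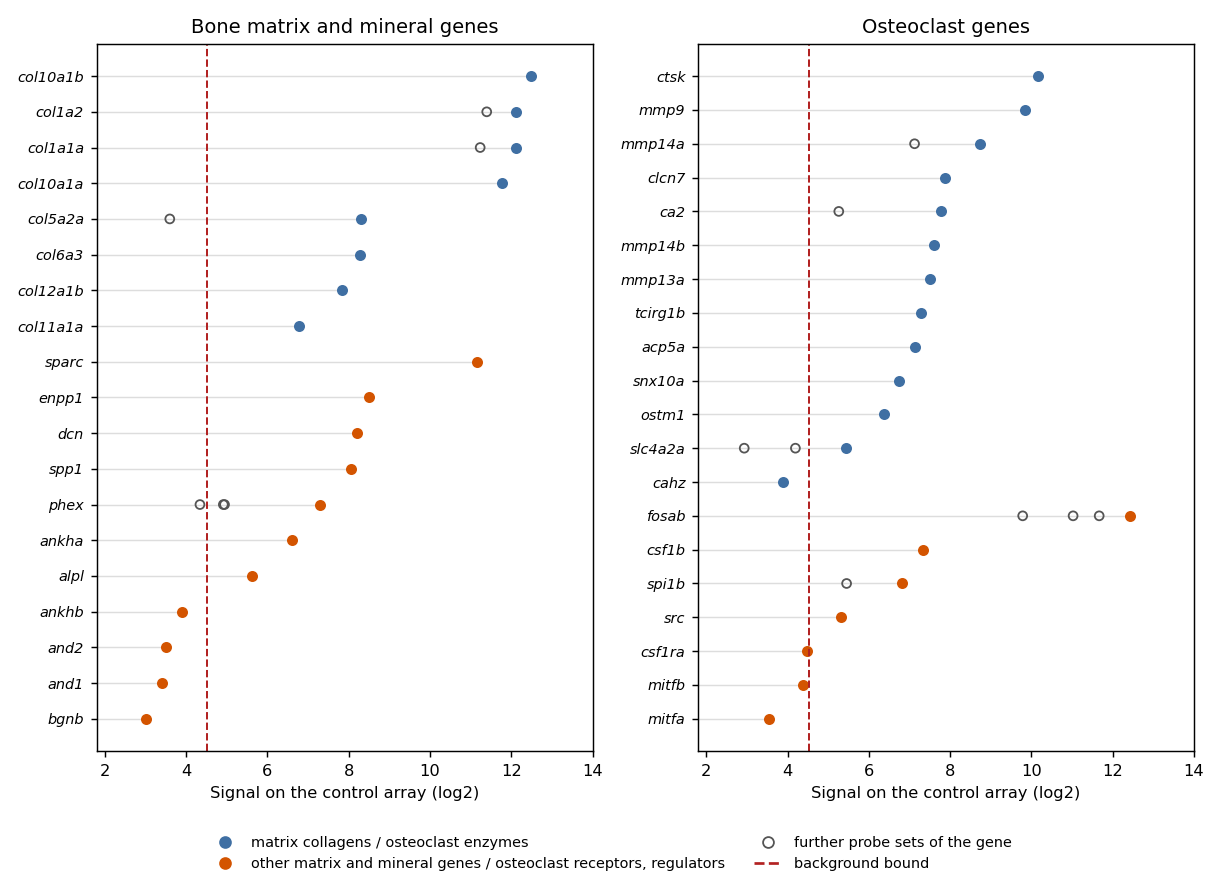
Log2 signal on the control array of bone matrix and mineral genes (left) and osteoclast genes (right). Filled points are the probe set that represents the gene, open circles are its further probe sets, and the dashed line is the background bound at 4.52. The filled points of collagens I and X lie at 11.78 and above. Genes ctsk (10.15) and mmp9 (9.84) lead the osteoclast enzymes, and csf1ra (4.47) sits at the bound.

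The vacuolar proton pump acidifies lysosomes in all cells and the resorption pit in osteoclasts. Of its genes 13 of 15 were above the bound (86.7%, next to 72.5% of all genes), with a median of 8.05. The membrane ring gene atp6v0ca read 9.88, and the stalk genes atp6v1g1 and atp6v1e1b read 9.48 and 9.03. The subunit gene atp6v1b2 read 3.01 whereas its paralogue atp6v1ba read 8.95. Lysosomal protease and enzyme genes were above the bound in 19 of 22 cases (86.4%), 10 of them in the top 10%. The tetraspanin gene cd63 read 12.04, the cathepsin S gene ctss2.2 read 10.96, the membrane protein gene lamp2 10.75 and the cathepsin B gene ctsba 10.18. The cathepsin genes ctss1 (2.89) and ctsll (2.72) were near background.

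Of 22 pan-leukocyte and myeloid genes, 21 were above the bound and 9 in the top 10%, with a median of 8.39. The invariant chain genes cd74a (13.22) and cd74b (13), which guide class II antigen presentation, were among the 100 highest genes. The transcription factor genes cebpb (12.44) and cebpa (10.96) and the gene nccrp1 (10.83) also occur in epithelia. The lowest of the list were cebp1, at 4.81 and 2.79 on its probe sets, and ncf4 at 4.42, the only member under the bound. Some genes more restricted to leukocytes were chosen here after their values were seen, so they give no level for such genes as a group. The actin regulator gene coro1a read 9.50 and 7.57 on its probe sets, the higher of them in the top 10%. The phosphatase gene ptprc read 8.22. The neutrophil peroxidase gene mpx read between 7.26 and 2.52 on its 4 probe sets, and the lysozyme gene lyz read 5.27. The gelatinase gene mmp9, also in this list, read 9.84. Antigen presentation genes were above the bound in 19 of 22 cases (86.4%, next to 72.5% of all genes). These include the class I light chain gene b2m at 12.55 and the class I gene mhc1zba at 10.80. The lowest of the antigen presentation list, mhc2dcb (4.25) and mhc1zca (2.94), were under the bound. Of the 27 names written for the lymphocyte list, only 9 were among the genes read here. The median of these 9 genes was 4.99, under the median of 5.98 for all genes. Of them 6 were above the bound (66.7%), and so short a list cannot set this share apart from the 72.5% of all genes. The T cell receptor constant gene trac read 7.0, 3.92 and 3.50 on its probe sets, the T cell factor gene gata3 read 6.64, and the B cell factor gene pax5 read 4.99 and 3.37.

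Connective tissue genes lay in the middle of the array, with 17 of 19 above the bound and a median of 6.72. The matricellular gene ccn1 read 10.90, 6.82 and 4.34 on its probe sets. The periostin gene postnb read 9.08, the proteinase inhibitor gene timp2a 9.03, and the gelatinase gene mmp2 8.85. The proteoglycan gene vcanb (3.48) and the chemokine gene cxcl12b (3.28) were near background. In the wider list of proteinase inhibitors and matrix proteases, 17 of 28 genes were above the bound (60.7%, next to 72.5% of all genes). The inhibitor genes cst14b.1 and serpine2 read 9.68 and 9.49, although the second probe set of cst14b.1 read 2.44.

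Pigment cell lists were short, and 72.5% of all genes were above the bound. Of 6 melanophore genes 1 (16.7%) was above it, the receptor gene kita at 5.70. The melanin synthesis genes dct and tyr read 4.14 and 3.97 and the master factor gene mitfa 3.54. Of 6 xanthophore genes 4 (66.7%) were above the bound, led by the carotenoid uptake and cleavage genes scarb1 (5.96) and bco1 (5.92). The genes slc2a15b (4.58, and 3.14 on its other probe set) and pax7a (4.55 to 3.23 over 4 probe sets) barely passed it. The pteridine synthesis gene gch2 read 3.86. With the bound at the 90th percentile of the off-tissue genes, the xanthophore share was 33.3%, next to 62.7% of all genes. For iridophores, 3 of 4 genes (75%) were above the bound. These were the purine synthesis genes paics (9.01), atic (7.16) and gart (6.64), which all growing cells use. The receptor gene ednrba read 4.25.

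Vessel, blood, nerve and muscle genes were low as groups, each with a few exceptions. Their shares above the bound stand next to 72.5% of all genes. Of 10 endothelial genes 4 (40%) were above the bound (median 4.27), namely lyve1a (6.44), plvapb (6.37), kdrl (5.32) and fli1 (5.13). Of 16 erythrocyte genes 7 (43.75%) were above it (median 4.30), with the adult alpha globin gene hbaa1 at 9.87. The next globin genes, hbbe2 and hbae3, read 5.13 and 5.12, so hbaa1 stood far from the other globin genes read here. For 5 single names written in this list there was no probe set of 1 symbol. Of 23 nerve and glia genes 10 (43.5%) were above the bound (median 3.60). The myelin basic protein gene mbpb read 9.20, against 5.18 for its paralogue mbpa. Axonal and synaptic genes followed, with syt1a at 6.08 and 3.76, gap43 at 6.00 and nrxn1a at 5.26, and the glial factor gene sox10 read 5.2. Of 40 skeletal muscle genes 11 (27.5%) were above the bound (median 3.94). The enolase gene eno3 (10.02), which also counts as a glycolysis gene, the myoglobin gene mb (7.75) and the actin gene actc1b (6.1) led them, while the myogenic factor gene myod1 (2.61) and the troponin gene tnnc1a (2.54) were lowest.

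The off-tissue lists that set the bound held a few high members. The germ plasm gene dnd1 read 7.96 on one probe set and 3.01 on the other. The coagulation factor XIII gene f13a1b, which macrophages also express in mammals, read 7.14, 6.89 and 2.76. The cone opsin gene opn1sw2 read 6.98 on its single probe set. The lowest genes of these lists were serpind1 (2.27) and crygm6 (2.29).

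**Figure D3:**
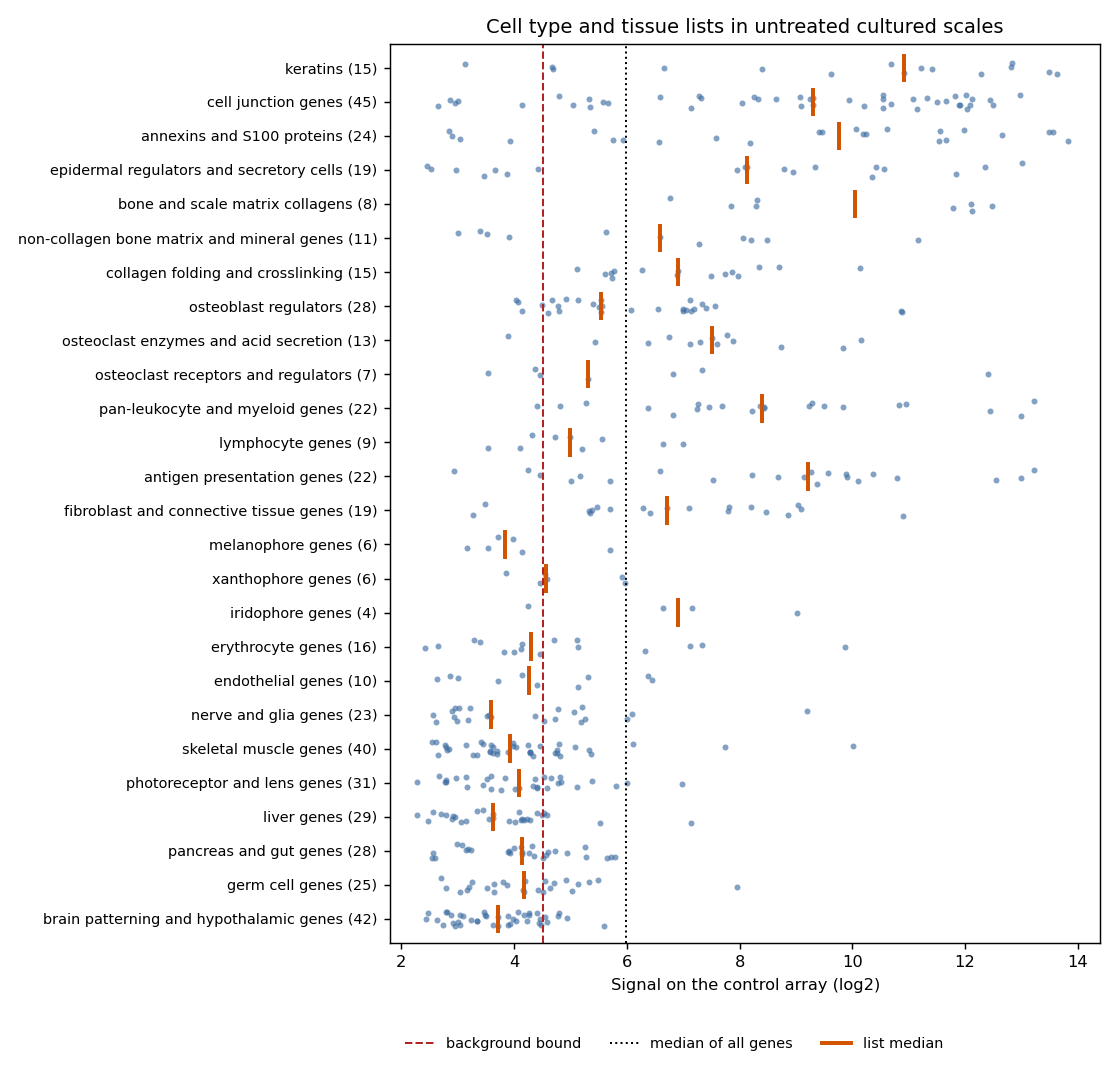
Log2 signal on the control array of the genes in each cell type or tissue list, a point per gene, with the number of genes in brackets, the list median as a bar, the background bound (dashed) and the median of all genes (dotted). Keratins (median 10.92) and matrix collagens (10.04) lie at the right, and melanophore, endothelial, erythrocyte, nerve, muscle and off-tissue lists have medians under the bound of 4.52.

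Immediate early genes, which cells induce within minutes of a stimulus, stood high as a group. All 38 were above the bound and 27 (71.1%) were in the top 10%, with a median of 10.47. The cytokine feedback gene socs3a read 12.59. The AP-1 genes junbb (12.58), fosab (12.41), junba (12.38) and jun (11.95) encode factors that bind DNA as pairs. The 4 probe sets of fosab read 12.41, 11.67, 11.02 and 9.78, so all of them were in the top 10%. The lowest members were fosl1b (6.73) and egr2b (6.1), both above the median of all genes. No array of scales before culture was analysed here, so whether these levels differ from those in the fish was not tested.

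Inflammatory genes were above the bound in 18 of 20 cases, with 4 in the top 10% and a median of 7.78. The inhibitors of NF-kappaB genes nfkbiaa and nfkbiab, themselves targets of that factor, read 12.23 and 11.69. The interferon factor gene irf1b read 11.18, against 3.88 for its paralogue irf1a. The prostaglandin synthase gene ptgs2a read 9.12, and the complement gene c3a.1 read 3.90 and 2.28.

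Chaperone genes were split between a few very high members and many at middle signals. Of 55 genes 47 were above the bound (85.5%, next to 72.5% of all genes), 8 were in the top 10%, and the median was 6.50. The constitutive chaperone gene hspa8 read 13.21. The gene hsp90ab1 read 12.67 on one probe set and 3.18 on the other. The co-chaperone gene dnajb1b read 12.34, and the heat-inducible gene hsp70.3 read 11.92. The lowest were hspa8b (3.27) and hspa4l (3.06).

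Oxidative stress and iron genes were above the bound in 29 of 30 cases, with 13 in the top 10% and a median of 9.0. Besides fth1a, the ferritin gene fthl27 read 12.76. The peroxiredoxin gene prdx5 read 11.80, the glutathione transferase gene gstp1.2 and the superoxide dismutase gene sod1 each read 11.22, and sqstm1, an autophagy receptor gene, read 10.52. The metallothionein gene mt read 4.72 and the transferase gene gsto1 read 4.34.

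Of 78 respiratory chain and ATP synthase genes 76 were above the bound and 38 in the top 10%, with a median of 9.14. They were led by the nuclear-encoded cytochrome oxidase gene cox6b2 (11.79) and the ATP synthase ring gene atp5mc3b (11.70). Next came cox7c (11.50), the cytochrome c gene cycsb (11.33) and cox5ba (11.21). The mitochondrially encoded COX1 (14.01) is not in this list. The paralogue genes cox4i1l (3.94) and ndufa4b (2.96) were the only members under the bound. Glycolysis genes had 19 of 27 above the bound (70.4%, next to 72.5% of all genes) and a wide spread between paralogues. The gene gapdhs read 10.78 while gapdh, chosen here after its value was seen, read 5.13. The aldolase gene aldoaa read 10.74 while aldoca read 2.93, and the lactate dehydrogenase gene ldhba read 10.28 while ldhbb read 2.99.

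All 41 proteasome genes were above the bound, between 6.54 for psmd11b and 10.21 for psmb3, with a median of 8.89. Cytoskeleton and actin regulator genes ranged from tmsb1 (13.73), tmsb4x (13.25) and the actin genes actb1 (13.22) and actb2 (12.75) down to the thymosin genes tmsb5 (3.03) and tmsb2 (2.6), with 38 of 47 above the bound. Cell cycle and replication genes were above the bound in 27 of 37 cases (73.0%), next to 72.5% of all genes, with a median of 5.91 next to 5.98. The kinesin gene kif20a read 10.56 and 5.39 on its probe sets, the replication clamp gene pcna read 9.65, and bub1bb (3.63) and gmnn (3.32) were lowest.

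**Figure D4:**
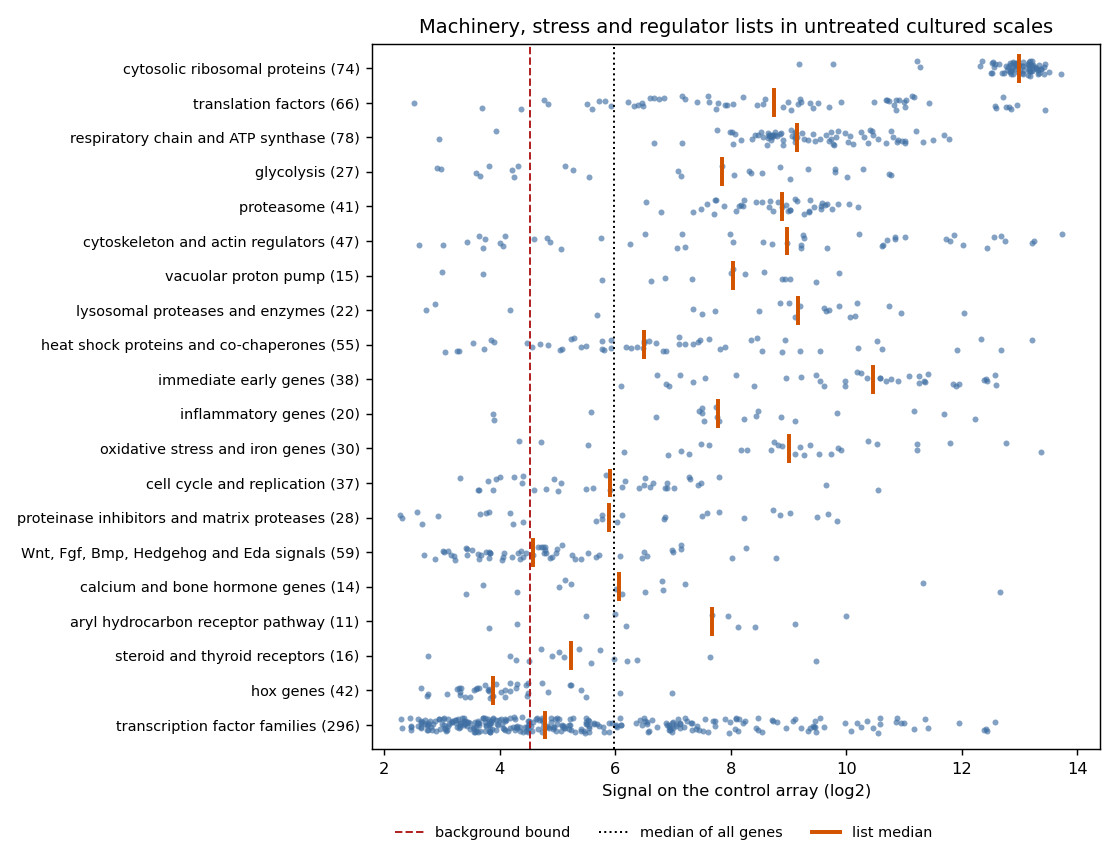
Log2 signal on the control array of the genes in lists of cell machinery, stress, signals and regulators, drawn as a point per gene with the list median as a bar, the background bound (dashed) and the median of all genes (dotted). Ribosomal protein genes form a tight cluster around 12.99, immediate early genes have a median of 10.47, and hox genes (3.88) lie under the bound.

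Transcription factor genes were lower than genes at large. Of 296 genes in the families listed, 160 (54.1%) were above the bound, against 72.5% of all genes, and the median was 4.78. A minority was very high, since 30 of them (10.1%) were in the top 10%, near the 10% of all genes. The 6 highest were junbb, cebpb, fosab, junba, jun and cebpd, all of which are also in the immediate early list, and cebpd read 11.42 and 3.28 on its probe sets. The lowest were pax1b (2.31) and nr2f1b (2.3).

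Hox genes, which carry positional identity along the body axis, were mostly near background. Of 42 genes 8 were above the bound (19.0%, next to 72.5% of all genes) and none was in the top 10%, with a median of 3.88. The highest were hoxc8a (6.98), hoxc9a (6.09), hoxb9a (5.50), hoxc6a (5.41), hoxd11a (5.24) and hoxb3a (5.21). The 3 probe sets of hoxc8a read 6.98, 4.25 and 2.6, and the second probe set of hoxb9a read 3.27, so these calls depend on the probe set. The lowest were hoxc6b (2.74) and hoxb6b (2.65).

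Genes of developmental signals had 30 of 59 above the bound (50.8%, next to 72.5% of all genes) and a median of 4.58. Receptors for fibroblast growth factors were highest, with fgfr3 at 8.79 and fgfr2 at 8.26 and 5.61. The bone morphogenetic protein gene bmp3, a modulator of that pathway in bone, read 8.03, and the Wnt receptor gene fzd10 read 7.14 and 5.70. Among calcium and bone hormone genes, 11 of 14 were above the bound (78.6%, next to 72.5% of all genes). After s100a10b, the calmodulin genes calm3b and calm3a read 11.32 and 7.20, the stanniocalcin gene stc2a 6.83, the plasma membrane calcium pump gene atp2b1a 6.82, and the growth factor gene igf2b 6.52, while igf1 read 3.42.

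The lists around receptors for small molecules lay at different levels. In the aryl hydrocarbon receptor pathway 9 of 11 genes (81.8%, next to 72.5% of all genes) were above the bound, with a median of 7.68. The receptor gene ahr2 read 7.95, its partner arnt2 read 5.49 and 3.97, and the paralogue ahr1a read 3.82. The cochaperone genes ptges3b, ptges3a and ahsa1b read 8.43, 8.13 and 6.19. Of the target genes, the repressor gene tiparp read 9.99, the quinone reductase gene nqo1 9.12 and the P450 gene cyp1a 7.68. The P450 gene cyp1c1 read 5.99, 4.37 and 4.31 on its probe sets, and cyp1d1 read 4.30. Of 16 steroid and thyroid receptor genes 12 were above the bound (75%, next to 72.5% of all genes), with a median of 5.24. The glucocorticoid receptor gene nr3c1 was highest at 9.48, followed by the retinoic acid receptor gene rarga (7.64) and the thyroid hormone receptor gene thraa (6.38). The estrogen receptor gene esr1 read 2.76 and 2.5, the lowest of the list.

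Of the 100 genes around the median rank, 92 belonged to no list. They lay between 5.94 and 6.02, and none of them was a ribosomal protein, keratin, respiratory chain or immediate early gene. The 12 nearest the median ranged from 5.98 to 5.99. They include cry4, a cryptochrome gene, suz12b, which encodes a subunit of the Polycomb repressive complex, sel1l, an adaptor gene of endoplasmic reticulum protein disposal, kifap3a, a kinesin-associated protein gene, and raraa, a retinoic acid receptor gene. The other 7 are zfand1, prxl2b, nudcd1, esf1, gpr19, zgc:194930 and ubxn7.

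At the low end, the 100 lowest genes read between 2.09 and 2.48. The phospholipase gene pla2g12b was lowest at 2.09, then the homeobox gene nkx2.9 (2.15) and the nucleoside phosphorylase gene pnp6 (2.17). The cornea proteoglycan gene kera read 2.22 and the dynamin gene dnm1a, known from neurons, also read 2.22. Clone-based names made up 18.0% of the 100 lowest genes, 8.0% of the 100 highest and 7.01% of all. Absent RNA and weakly binding probes cannot be told apart in a low reading.

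Features of the probe sets moved with the order of signals, and their part in it was not tested. Of the 100 highest genes 16.0% were read by a probe set marked as one that may match several transcripts, against 3.97% of all genes. Probe sets marked A for orientation made up 10% of the 100 highest, 58.0% of the 100 around the median and 50.9% of all genes. Of the 100 highest genes 46 had a probe set whose cluster number is shared with another gene's probe set, against 4.49% of all genes with such numbers.

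Probe sets of the same gene gave a direct measure of how far a level can be trusted. In 1539 genes with at least 2 probe sets, the highest and lowest differed by a median of 1.49 (quartiles 0.69 and 2.58), and 986 genes (64.1%) differed by more than 1. Of 1280 such genes above the bound by their highest probe set, 534 (41.7%) had their lowest at or under it. For some genes given above by their highest probe set alone, the lowest probe set was under the bound. It read 1.98 for runx2b, 2.88 for actc1b, 2.93 for slc4a2a, 3.01 for atp2b1a and 3.02 for msx3. It read 3.99 for hbae3, 4.01 for fli1, 4.05 for zfand1 and 4.47 for krt1-19e. Of the 12 among the 100 highest genes, 11 had every probe set above the bound and 7 had every one in the top 10%. The widest gaps among genes with at least 3 probe sets were in si:dkey-7c18.24 (14.02 to 3.69), the myosin light chain gene myl12.1 (12.02 to 2.51), the topoisomerase gene top1a (9.70 to 2.25), cldng (12.12 to 4.97), the annexin gene anxa5b (10.06 to 3.11) and the splicing gene prpf8 (9.12 to 2.52). A gene with several probe sets had more chances of a high reading, because the highest one represents it.

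**Figure D5:**
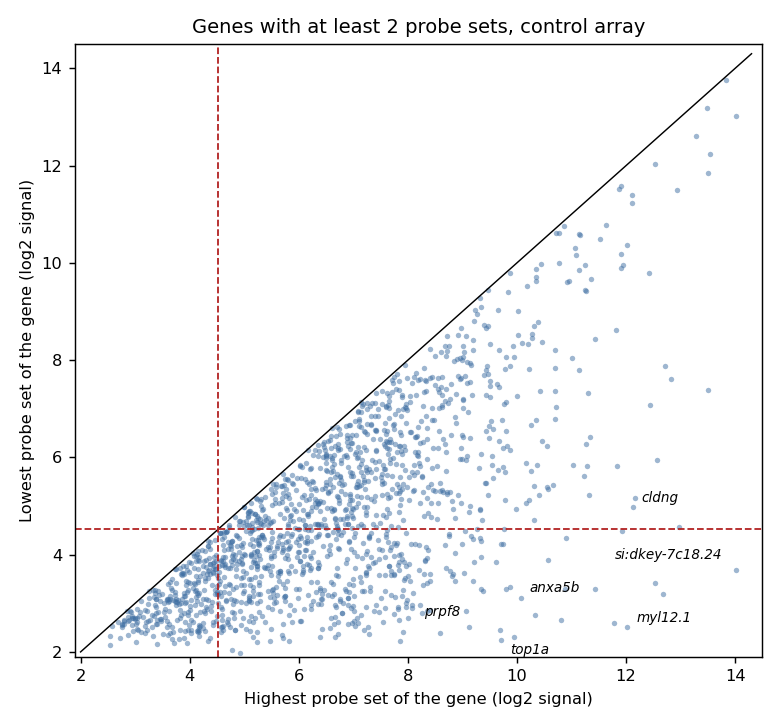
Highest (horizontal) against lowest (vertical) log2 signal among the probe sets of each of 1539 genes on the control array, a point per gene, with the line of equality and dashed lines at the background bound. Points in the lower right, such as myl12.1 (12.02 and 2.51), are genes whose probe sets disagree about whether the gene is above background.

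The order of genes was read a second time on the arrays of scales kept with a compound, with the same probe set per gene. Of the 100 highest control genes, 97 were also among the 100 highest with BcP, and 97 with 3-OHBcP. In the top 10%, 851 and 855 of 879 genes were shared with these arrays. With the bound set on each array in the same way, 6167 of the 6379 control genes were also above it with BcP and 6235 with 3-OHBcP. That bound was 4.71 with BcP and 4.65 with 3-OHBcP, higher than the 4.52 of the control array. Genes above the bound on the control array alone numbered 212 and 144. Genes above it on the other array alone numbered 37 and 41. The median absolute difference from the control was 0.054 and 0.037. These readings are not replicates of the control, since the groups differ in treatment. Because the same probe sets were read, differences in probe binding between genes were shared by all arrays. The shared order therefore cannot show that signals follow RNA amounts. The median gap of 1.49 between probe sets of a gene on the control array is an unlike measure, since it compares different probes.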

How the data were processed

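The authors deposited 1 log2 signal per probe set and array, for which the submitters' processing notes name Affymetrix Expression Console; the scale was read from the values, and the summarization, normalization and background steps are not given in the sources used here. No further scaling was applied. Of 15502 non-control probe sets, 10795 had exactly 1 symbol, 135 several and 4572 none. Symbols were updated by gene ID through a RefSeq table of GRCz12tu (10711 matched), used for names alone.

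Each gene took its highest control probe set. Described in counts and medians were 46 gene lists; of 1140 single names in them, 643 had a probe set. The members, lists and rule were chosen with earlier results of these data known. After values were seen, 7 lists were corrected by gene name: 30 entries that are not members of the family were taken out (kinases or binding partners caught by a name pattern, and ictacalcin genes listed as keratins), and 3 missed ribosomal protein genes were added. The lists as first written were kept as an alternative.

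Named genes are the 30 highest, the 12 nearest the median, the 10 lowest, the 6 highest and 2 lowest of each list, all osteoblast, osteoclast and aryl hydrocarbon receptor members, the 4 markers and the 6 genes with the widest probe set gaps; others are marked where they are named. Python 3.11.15, numpy 2.4.6 and pandas 2.3.3 were used, and the gene choice and ranking were tested on simulated data.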

Additional observations from a re-analysis of the deposited data

Results flagged for a closer look

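Probe sets without a gene symbol were outside the description of genes, and many carried signal. Of 4572 such probe sets, 2207 (48.3%) were above the background bound, against 68.9% of the probe sets with exactly 1 symbol. Their median was 4.40 and their highest value was 13.56. Of the 100 highest non-control probe sets, 88 had 1 symbol, 3 had several and 9 had none, so the top of the array as described by gene is incomplete.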

How the results depend on the processing

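The number of genes above the bound was 6379 in the main setting. It was 7080 and 5513 with the bound at the 50th and 90th percentile of the off-tissue genes. With the bound at the median of all genes it was 4396, a number that this choice of bound fixes in advance. It was 6309 with the mean of a gene's probe sets and 5991 with its lowest probe set. The number was 6216 when the probe sets marked as matching several transcripts were dropped, and 6379 with the annotation's own symbols. Of the 100 highest genes, 87 stayed when the multi-match probe sets were dropped, 94 with the mean and 91 with the lowest probe set. Of the 46 lists, 26 had a larger share above the bound than all genes, and this number was 30 and 27 with the bound at the 50th and 90th percentile, 24 with the mean, 25 with multi-match probe sets dropped and 26 with the lists as first written, an alternative chosen after seeing the data. With the 50th and 90th percentile as the bound, the share moved outside its 95% exact binomial interval, which covers counting error only, in 13 and 6 lists. The 46 lists include the 5 off-tissue lists that set the bound. Their pooled share above it is fixed by the percentile, so their part in these list counts was largely set in advance. Photoreceptor and brain lists were among the moved lists at both percentiles. It moved in 0 lists with the mean, with multi-match probe sets dropped and with the lists as first written. List shares were not examined with the lowest probe set, the bound at the median of all genes or the annotation's own symbols. The lists as first written differed in median by at most 0.24; with them, 58 ribosomal protein genes and 6 genes of the keratin list were among the 100 highest. No paired analysis was possible because there was 1 array per group and no test was made.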

Other observations

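The genes in this paragraph and the next were chosen after their values were seen, and those of this paragraph belong to no list above. The cold-inducible RNA-binding protein genes cirbpb and cirbpa read 12.57 and 12.13, although the second probe set of cirbpb read 5.96. All arrays hold scales kept at 15 °C, so a link of these signals to temperature was not tested. The enamelin gene enam, a member of the secretory calcium-binding phosphoprotein family of mineralized tissue, read 12.12. The survival gene mcl1a read 12.57, the unfolded protein response factor gene xbp1 12.07 and the redox regulator gene txnipa 11.80. The glutathione-degrading enzyme gene chac1 read 11.78 and 2.6 on its probe sets. The water and glycerol channel gene aqp3a, known from epidermal basal cells, read 11.43. The complement factor D gene cfd read 12.53.

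Transcription factor genes outside the immediate early list included further members of high signal. The runt factor gene runx3 read 10.09 and 8.35 on its probe sets, and her9, a hairy-related repressor gene, read 9.47. The SoxB gene sox3 read 9.38 on its highest probe set and 3.26 on its lowest, and sox19a read 8.44 on its single probe set.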
